A study of Mus musculus with 11 samples.

Results

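The temporal competence genes are 10 mouse genes that are read as markers of how old a neural stem cell is: Hmga1, Hmga2, Lin28b, Igf2bp1, Igf2bp2 and Igf2bp3 for the early stage, and Nfia, Nfib, Nfix and Zbtb20 for the late, gliogenic stage. They are a list of names, put together with earlier results of these data known, and they are 10 of the 53453 gene rows in the deposited table. Of the 13549 genes with enough signal to be tested, 8 were among these 10. Transcript levels were measured by RNA sequencing of primary neurospheres, stem and progenitor cells of the embryonic brain grown as floating spheres. The Klf5 overexpression group has 5 libraries and the control group has 6, all from mouse embryos at E15.5. The labels list no treatment for either group, and their protocol counts as many embryos as libraries. The sources used here do not give how Klf5 was overexpressed, in which cells or in which strain. The comparison asks how the markers of the early and late stages differ with more Klf5, a Krüppel-like transcription factor.

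Neural stem cells of the mammalian brain make neurons first and glia later, and the stem cells themselves change with age. Young stem cells are rich in the chromatin proteins HMGA1 and HMGA2, in the RNA-binding protein LIN28B and in the IGF2BP family of RNA-binding proteins. The microRNA let-7 accumulates with age and represses many of these transcripts, while LIN28B blocks the maturation of let-7. The nuclear factor I proteins NFIA, NFIB and NFIX and the zinc-finger repressor ZBTB20 come on later and take part in the production of astrocytes.

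The let-7 family is shown first because it is the known repressor of the early genes. Its seed is the run of bases at positions 2 to 8 from the 5′ end. The mature miRNAs are RefSeq entries on GRCm38.p6, with the seed in capitals. The first is encoded at chr13:48538239-48538260 on the minus strand, the second at chr15:85707325-85707346 on the plus strand and the third at chr9:106178846-106178867 on the plus strand.
mmu-let-7a-5p: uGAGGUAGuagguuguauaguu
mmu-let-7b-5p: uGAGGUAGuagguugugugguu
mmu-let-7g-5p: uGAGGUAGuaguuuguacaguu
A match to this seed reads CTACCTC in the transcript. In the longest annotated 3′ UTR of each gene (GENCODE M21 annotation of GRCm38), it was found in 6 of 6 early genes and in 1 of 4 late genes. Among all tested genes with an annotated 3′ UTR, 1179 of 11285 had at least 1 match (10.4%). The 6 early genes are themselves widely listed as let-7 targets, so their count could be foreseen from the choice of genes. Hmga2, Lin28b and Igf2bp1 had 4 matches each. Of the 11285 tested genes, 6 had 4 or more, and Hmga2 is 1 of them, since Lin28b and Igf2bp1 were too low to be tested. The first match of each gene is printed in the sense of its transcript, with the match in capitals.
Hmga1, chr17:27563277-27563299, plus strand: tcctctgttcacaaaCTACCTCt
Hmga2, chr10:120364224-120364246, minus strand: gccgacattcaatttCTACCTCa
Lin28b, chr10:45381022-45381044, minus strand: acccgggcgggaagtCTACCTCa
Igf2bp1, chr11:95961778-95961800, minus strand: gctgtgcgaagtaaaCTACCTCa
Igf2bp2, chr16:22059473-22059495, minus strand: acacacaaataaaagCTACCTCa
Igf2bp3, chr6:49086787-49086809, minus strand: tgcatttttactcaaCTACCTCa
Nfia, chr4:98117918-98117940, plus strand: gatacaggagaagtgCTACCTCt
In Hmga2, Lin28b, Igf2bp1, Igf2bp2 and Igf2bp3 this first match is followed by an A, which is the base favoured next to a let-7 site, and in Hmga1 and Nfia by a T. Of all 4 matches, 1 is followed by an A in Hmga2, 1 in Lin28b and 3 in Igf2bp1. The number of matches did not simply follow the length searched. The 3′ UTR of Zbtb20 spans 23858 bases and those of Nfib and Nfix 6621 and 3951 bases, all without a match, while that of Hmga1 has 1 match in 1183 bases. A match is a run of letters and was not shown to be a working site here.

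**Figure D1:**
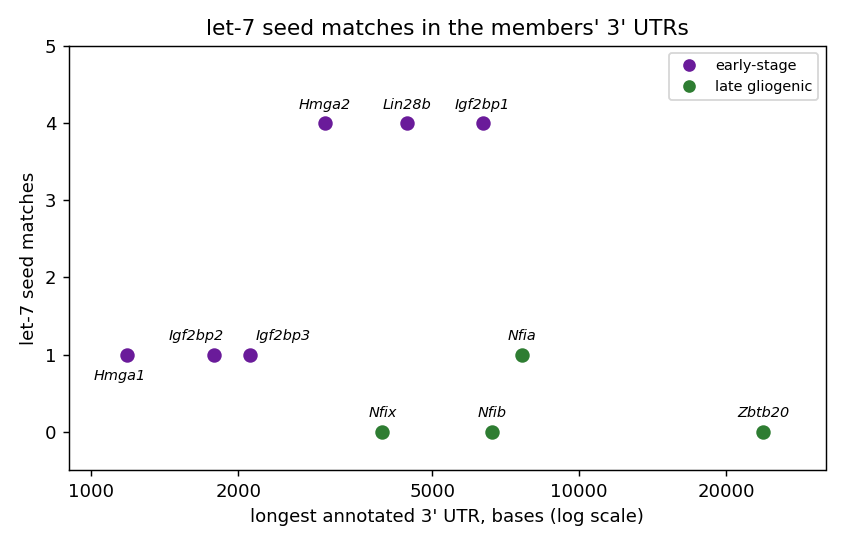
Matches to the let-7 seed in the longest annotated 3′ UTR of each of the 10 genes (vertical axis, number of matches) against the length of that 3′ UTR in bases (horizontal axis, log scale). The 6 early genes have 1 or 4 matches, and among the late genes Nfia has 1 and the other 3 have none.

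Levels are given in TPM, a unit that corrects for the length of a transcript and for the size of the library, so that levels of different genes can be compared. Klf5 itself stood at 53.6 to 93.0 TPM in the Klf5 overexpression libraries and at 0.371 to 1.29 TPM in the control libraries, so its level and the labels go together. The rows of the table summed to 730832 to 821967 TPM in the Klf5 overexpression libraries and to 814208 to 846780 TPM in the control libraries, and Klf5 overexpression library 5 had the lowest sum. Rows for ribosomal RNA-like transcripts took 7.40% to 18.1% of the listed sum with Klf5 overexpression and 11.2% to 18.8% in controls. Because levels are shares of a total, each difference is relative to all other transcripts. Sox2 and Nes, which mark neural precursors, averaged 359.9 and 382 TPM in Klf5 overexpression libraries and 377 and 342 TPM in control libraries. Most of the 10 precursor markers were below 0 on the log2 scale: 8 of 10, with a median log2 difference of -0.54. Of all tested genes 42.4% were above 0, with a median of -0.04. At an unadjusted limma p under 0.05 there were 6, against 12.6% of all tested genes. Hes5, Fabp7 and Prom1 had log2 differences of -0.87, -0.76 and -0.70 without passing (limma, adjusted p = 0.0623, 0.0690 and 0.254). Sox3 and Msi1 were called lower and Vim higher, against 1.43% of all tested genes called lower and 2.29% higher. The calls of Msi1 and Vim were lost in 10 and 9 of the 11 fits that left out 1 library. Markers of microglia, endothelium and red blood cells were near 0: none of 25 passed the filter, and no list summed to more than 1.99 TPM in a Klf5 overexpression library or 1.28 TPM in a control library. At 0 in all 11 libraries were 5 of 10 microglial, 0 of 7 endothelial and 5 of 8 red cell markers. The 9 mural and mesenchymal markers summed to 2.48 to 6.08 TPM with Klf5 overexpression and to 1.70 to 8.72 TPM in controls, with 2 at 0 in all libraries and neither of the 2 tested called.

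Hmga1 was the 1 member called, and it was higher with Klf5 overexpression. HMGA1 is an AT-hook protein that loosens chromatin and is abundant in dividing progenitors. Its row (ENSMUSG00000046711, GRCm38 chr17:27556497-27563674, plus strand) held 150.2, 94.0, 99.2, 120.1 and 111.1 TPM in Klf5 overexpression libraries 1 to 5. The 6 control libraries ran from 62.2 to 87.9 TPM, with a median of 71.2 TPM. Every Klf5 overexpression library lay above every control library. Means were 115 ± 22.2 TPM with Klf5 overexpression and 73.7 ± 9.46 TPM in controls (SD, n = 5 and 6), a ratio of 1.56. On the log2(TPM + 1) scale the difference was 0.62 ± 0.13 (SE; 95% interval 0.34 to 0.91; limma, adjusted p = 0.0130), and an exact permutation test of the 11 libraries gave p = 0.00216, the smallest this design allows. Of the 8 tested members, 1 was called, against 3.72% of all tested genes (2.29% called higher and 1.43% lower). Groups without overlap were also found for 1 member, against 3.29% of all tested genes. The call held in each of the 11 fits without 1 library, where the log2 difference ranged from 0.52 to 0.69. In bulk RNA, a change in the number of cells that carry a transcript and a change in RNA per cell cannot be told apart.

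Hmga1 shares sequence with a second row of the table, Hmga1b (ENSMUSG00000078249, GRCm38 chr11:120762794-120764419, plus strand), so the level of either row is uncertain. The 324-base coding sequences of both are identical, with 0 differences. Of the 31-base windows of Hmga1 transcripts, 62.1% also occur in Hmga1b, and of those of Hmga1b, 92.7% also occur in Hmga1. At 151 bases, the number of sequencing cycles in the labels, the shares were 29.9% and 69.3%. Hmga1b held 31.1, 25.3, 30.2, 31.4 and 31.2 TPM in Klf5 overexpression libraries 1 to 5, and 16.6 to 24.3 TPM in controls (median 21.4 TPM). These groups did not overlap either. Its log2 difference was 0.51 ± 0.13 (SE; limma, adjusted p = 0.0443), and this call was lost in 8 of the 11 fits without 1 library. Summed over both rows the mean was 145 ± 23.8 TPM with Klf5 overexpression and 94.5 ± 12.3 TPM in controls (SD, n = 5 and 6). Hmga1 made up 79.1 ± 2.31% of that sum with Klf5 overexpression and 78.0 ± 1.31% in controls, a difference smaller than either SD. In none of the other 9 members did a 151-base window occur in another gene.

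The promoter of Hmga1 is printed because it is the 1 member called and because Krüppel-like factors bind GC boxes and CACCC boxes. The sequence is that of RefSeq on GRCm38.p6, chr17:27556324-27556623, plus strand, from 250 bases before to 50 bases after an annotated start. Capitals mark GGGCGG on either strand, read as CCGCCC on the other.
Hmga1 promoter: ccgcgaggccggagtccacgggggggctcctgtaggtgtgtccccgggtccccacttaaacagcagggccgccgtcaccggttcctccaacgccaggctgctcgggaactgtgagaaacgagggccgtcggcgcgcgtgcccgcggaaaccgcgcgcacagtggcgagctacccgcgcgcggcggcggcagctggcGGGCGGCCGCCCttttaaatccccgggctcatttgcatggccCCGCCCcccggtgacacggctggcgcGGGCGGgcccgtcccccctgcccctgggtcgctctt
It holds 4 GGGCGG matches and 0 CACCC matches, counted on both strands. Among 32851 RefSeq promoters of this length, 35.7% held GGGCGG at least once and 5.49% at least 4 times, and 57.5% held CACCC. Promoters of 8 of the 10 members were in the table. The promoters of Hmga2 and Igf2bp2 held 1 and 2 GGGCGG matches and 1 CACCC match each, that of Igf2bp3 held 0 and 1, and those of Lin28b, Nfia and Zbtb20 held neither. In Igf2bp2 a GGGCGG match and the CACCC match share a base. The 4 promoters listed for Nfix held 0 to 2 GGGCGG and 1 to 2 CACCC matches. The letters describe the sequence and say nothing of whether Klf5 was bound there.

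Hmga2 (GRCm38 chr10:120361275-120476469, minus strand), the fetal member of the HMGA family and a direct let-7 target, was low in these cultures. Klf5 overexpression libraries 1 to 5 held 3.61, 2.05, 4.62, 5.61 and 2.06 TPM, and control libraries 1.94 to 5.59 TPM (median 4.71 TPM). The groups overlapped over nearly their whole range. The log2 difference was -0.25 ± 0.26 (SE; 95% interval -0.81 to 0.31; limma, adjusted p = 0.843), so a fall of up to 0.81 or a rise of up to 0.31 on this scale remains within the interval. Hmga1 accounted for 97.0 ± 1.30% of the summed HMGA level with Klf5 overexpression and for 94.5 ± 1.44% in controls (SD, n = 5 and 6).

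Lin28b (GRCm38 chr10:45376620-45486395, minus strand), which blocks let-7 maturation, was close to 0 in every library. Klf5 overexpression libraries 2 to 5 held 0.0234, 0.0542, 0.0129 and 0.00493 TPM and library 1 was listed at 0. Control libraries ran from 0 to 0.0779 TPM (median 0.0150 TPM). It did not pass the filter of 1 TPM in 5 libraries and no difference could be read from it. Its paralog Lin28a was listed at 0 in all 11 libraries.

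The 3 IGF2BP genes encode proteins that bind and stabilise messenger RNAs in fetal cells, and none of them was called. Igf2bp3 (GRCm38 chr6:49085223-49214957, minus strand) was the main member of the family in these cultures. It held 26.1, 33.4, 31.02, 34.3 and 24.6 TPM in Klf5 overexpression libraries 1 to 5, and 26.9 to 35.9 TPM in controls (median 30.5 TPM). The groups overlapped, and their means of 29.9 ± 4.34 and 30.6 ± 3.36 TPM (Klf5 overexpression and control, SD, n = 5 and 6) differed by less than 1 SD. The log2 difference was -0.04 ± 0.13 (SE; 95% interval -0.31 to 0.23; limma, adjusted p = 0.969), and its sign changed between settings.

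Igf2bp2 (GRCm38 chr16:22059009-22163299, minus strand), which is also known as a stem cell factor of the fetal brain, held 1.70, 5.42, 4.84, 4.27 and 3.20 TPM in Klf5 overexpression libraries 1 to 5, and 2.05 to 6.63 TPM in controls (median 5.29 TPM). The lowest value was in Klf5 overexpression library 1, and the groups overlapped. Its log2 difference was -0.25 ± 0.28 (SE; 95% interval -0.85 to 0.34; limma, adjusted p = 0.847). Igf2bp1 (GRCm38 chr11:95957163-96005940, minus strand), a let-7 target in fetal neural stem cells, was below 1 TPM in all 11 libraries and was not tested. It held 0.233, 0.801, 0.435, 0.419 and 0.529 TPM in Klf5 overexpression libraries 1 to 5, and 0.166 to 0.823 TPM in controls (median 0.612 TPM; two-sided exact permutation p = 0.615). Igf2bp3 made up 87.5 ± 3.41% of the summed IGF2BP level with Klf5 overexpression and 85.2 ± 3.50% in controls (SD, n = 5 and 6), so the family was dominated by 1 gene in both groups.

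**Figure D2:**
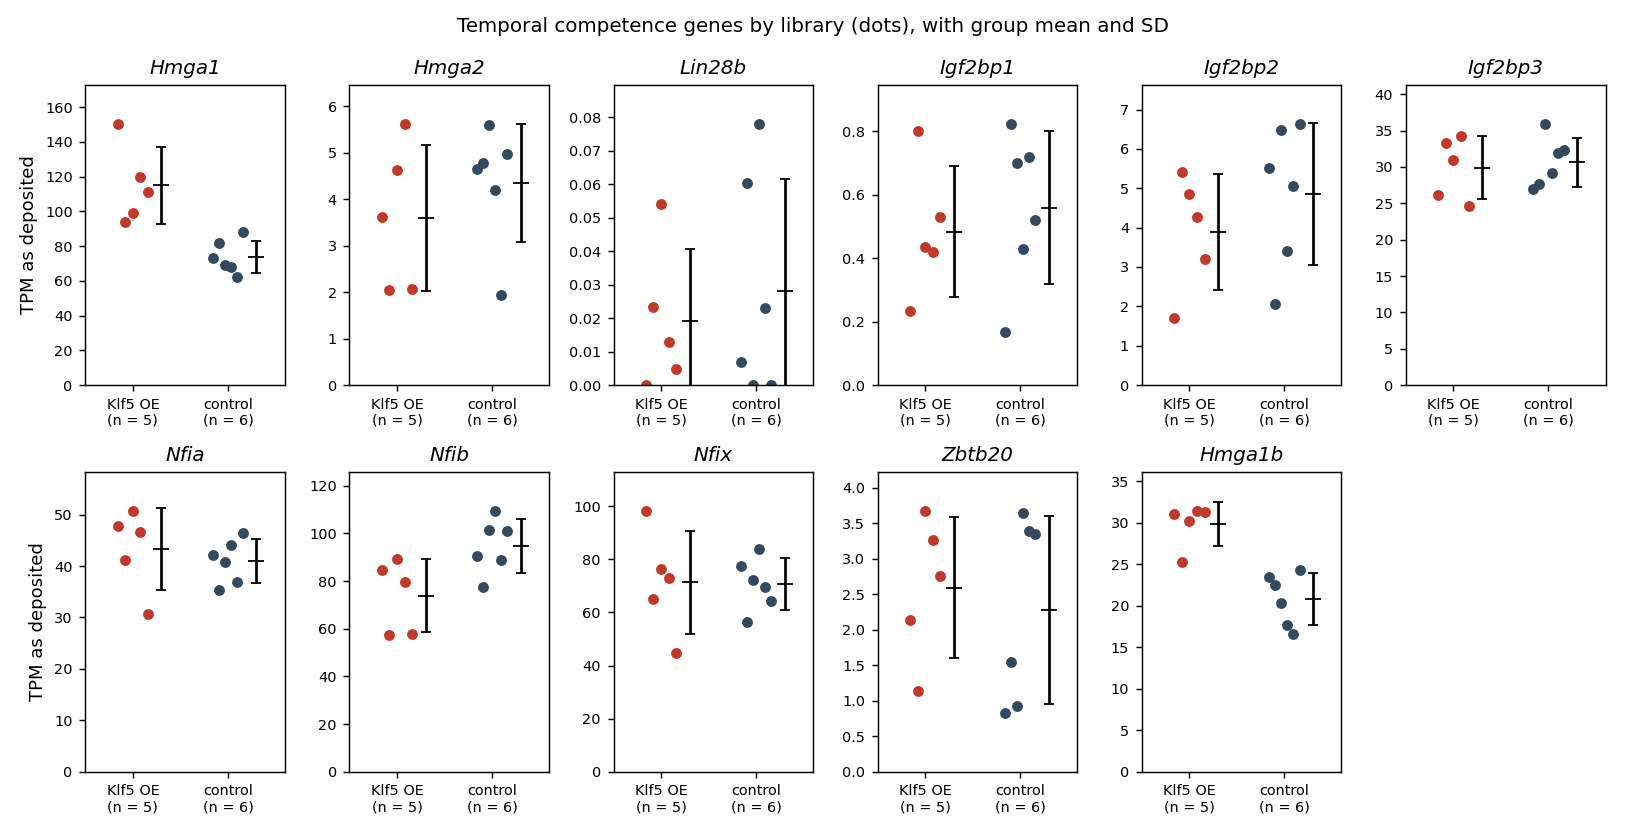
TPM of each of the 10 genes by library, with Klf5 overexpression (n = 5) left of control (n = 6) and the mean with SD beside the points, and of Hmga1b, the near-identical copy of Hmga1. The groups are apart for Hmga1 and Hmga1b and overlap for the other 9 members, and Lin28b and Igf2bp1 lie below the 1 TPM filter in every library.

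Among the late genes, the NFI factors, which bind DNA as dimers and switch on astrocyte genes, were abundant in both groups, and none was called. Nfia (GRCm38 chr4:97772734-98118874, plus strand), known for starting gliogenesis, held 47.8, 41.1, 50.7, 46.7 and 30.6 TPM in Klf5 overexpression libraries 1 to 5, and 35.4 to 46.3 TPM in controls (median 41.5 TPM). Klf5 overexpression library 5 was the lowest of all 11, and the control range lay inside the range of the Klf5 overexpression group. The log2 difference was 0.07 ± 0.14 (SE; 95% interval -0.23 to 0.36; limma, adjusted p = 0.939).

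Nfib (GRCm38 chr4:82290173-82705750, minus strand), needed for the growth of the cortex and its glia, had the smallest p among the late genes. It held 84.8, 57.3, 89.4, 79.8 and 57.7 TPM in Klf5 overexpression libraries 1 to 5, and 77.7 to 109.4 TPM in controls (median 95.6 TPM). All 5 Klf5 overexpression libraries lay below the control mean, but 3 of them lay inside the control range. Means were 73.8 ± 15.3 TPM with Klf5 overexpression and 94.8 ± 11.3 TPM in controls (SD, n = 5 and 6). The log2 difference was -0.37 ± 0.14 (SE; 95% interval -0.67 to -0.07). It was not called over all genes (limma, adjusted p = 0.224), and an exact two-sided permutation test of this gene alone gave p = 0.0325. After trimmed-mean scaling, which adjusts each library for its overall level, the difference was -0.33 and just passed the threshold (limma, adjusted p = 0.0491). Under that scaling 735 genes were called over the table, against 504 without it.

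Nfix (GRCm38 chr8:84699876-84800344, minus strand), which is needed for the timely differentiation of brain precursors, held 98.3, 65.1, 76.3, 72.8 and 44.7 TPM in Klf5 overexpression libraries 1 to 5, and 56.2 to 83.9 TPM in controls (median 70.9 TPM). Both the highest and the lowest of the 11 values were in the Klf5 overexpression group. The log2 difference was -0.02 ± 0.17 (SE; 95% interval -0.37 to 0.34; limma, adjusted p = 0.997), and its sign changed between settings. Zbtb20 (GRCm38 chr16:42875881-43642602, plus strand), a repressor needed in the hippocampus and in astrocyte formation, was low. It held 2.14, 1.14, 3.68, 3.26 and 2.76 TPM in Klf5 overexpression libraries 1 to 5, and 0.826 to 3.65 TPM in controls (median 2.45 TPM). The groups overlapped, with a log2 difference of 0.19 ± 0.31 (SE; 95% interval -0.46 to 0.84; limma, adjusted p = 0.915). Several members overlap other tested genes of the annotation, and the sources used here do not say whether reads were assigned by strand. Hmga1 (AI413582), Igf2bp3 (Malsu1), Nfia (E130114P18Rik) and Nfib (Gm11266) have a partner on the opposite strand. On their own strand, Zbtb20 holds BC002163 and Mir568, and Igf2bp1 holds Mir3063. None of these partners was called, and their mean levels were 1.08 to 21.7 TPM with Klf5 overexpression and 2.08 to 18.9 TPM in controls. With Klf5 overexpression and in controls, BC002163 averaged 6.63 and 10.6 TPM and Mir568 8.20 and 6.41 TPM, against 2.60 and 2.28 TPM for Zbtb20. Mir3063 averaged 1.46 and 2.13 TPM, against 0.483 and 0.560 TPM for Igf2bp1. Reads could be divided among such rows, so the low levels of Zbtb20 and Igf2bp1 are uncertain.

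**Figure D3:**
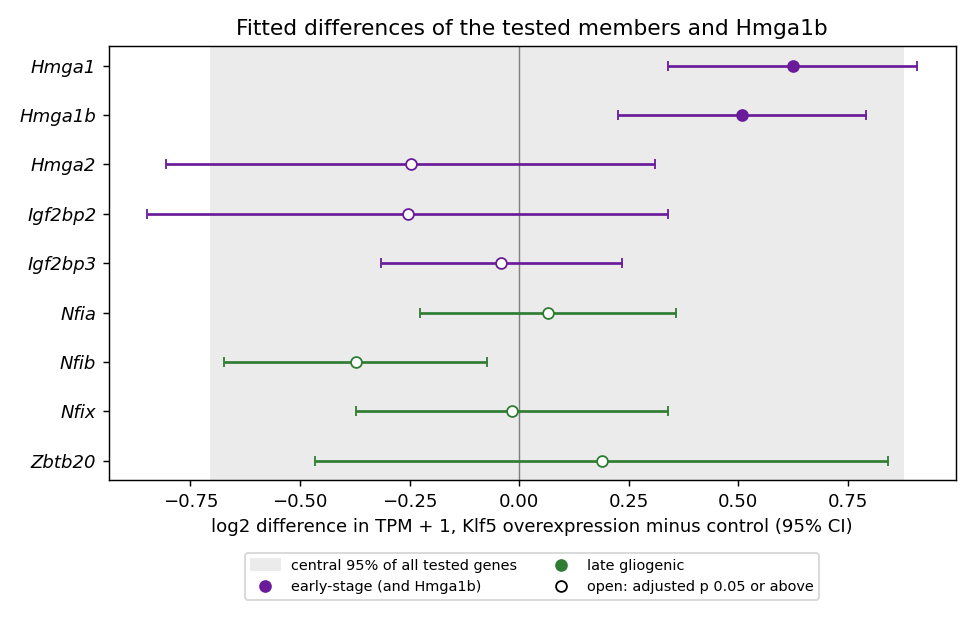
Log2 difference in TPM + 1, Klf5 overexpression minus control, with 95% intervals for the 8 tested genes and for Hmga1b. The grey band holds the central 95% of all tested genes. Before adjustment over all genes, the intervals of Hmga1 (0.34 to 0.91) and Hmga1b (0.23 to 0.79) lie above 0. That of Nfib (-0.67 to -0.07) lies below 0, and those of the other 6 members span 0.

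Within the NFI family the share of Nfib separated the groups, which the level of none of the 3 members did. Nfib made up 33.5%, 32.4%, 38.5%, 36.6% and 40.1% of the summed TPM of Nfia, Nfib, Nfic and Nfix in Klf5 overexpression libraries 1 to 5, and 40.7% to 43.9% in controls (median 42.7%). The groups did not overlap on this share, which does not depend on how libraries are scaled. It was chosen after its values were seen and was given no test. Mean shares were 36.2 ± 3.26% with Klf5 overexpression and 42.6 ± 1.25% in controls (SD, n = 5 and 6). The shares of the other 3 genes were each slightly larger with Klf5 overexpression than in controls: 34.6% against 31.8% for Nfix, 21.3% against 18.5% for Nfia and 7.83% against 7.16% for Nfic.

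Within groups the NFI genes varied together from library to library. After each group's mean was subtracted, the 11 libraries gave Pearson's r = 0.84 for Nfia with Nfib, 0.81 for Nfia with Nfix and 0.77 for Nfib with Nfix. Trimmed-mean scaling lowered these to 0.60, 0.65 and 0.57. All genes share the library's total, and before scaling the median r of Nfib with the other 13548 tested genes was already 0.43. Igf2bp2 and Igf2bp3 gave r = 0.68, and 0.83 after scaling. Values like those of the scaled NFI pairs were not particular to this family. Igf2bp2 with Nfia gave r = 0.23, and 0.61 after scaling. Hmga2 gave r = 0.64 with Nfia and 0.62 with Nfib before scaling, and 0.19 and 0.21 after it. These are descriptions over libraries that share depth and composition, with no test.

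**Figure D4:**
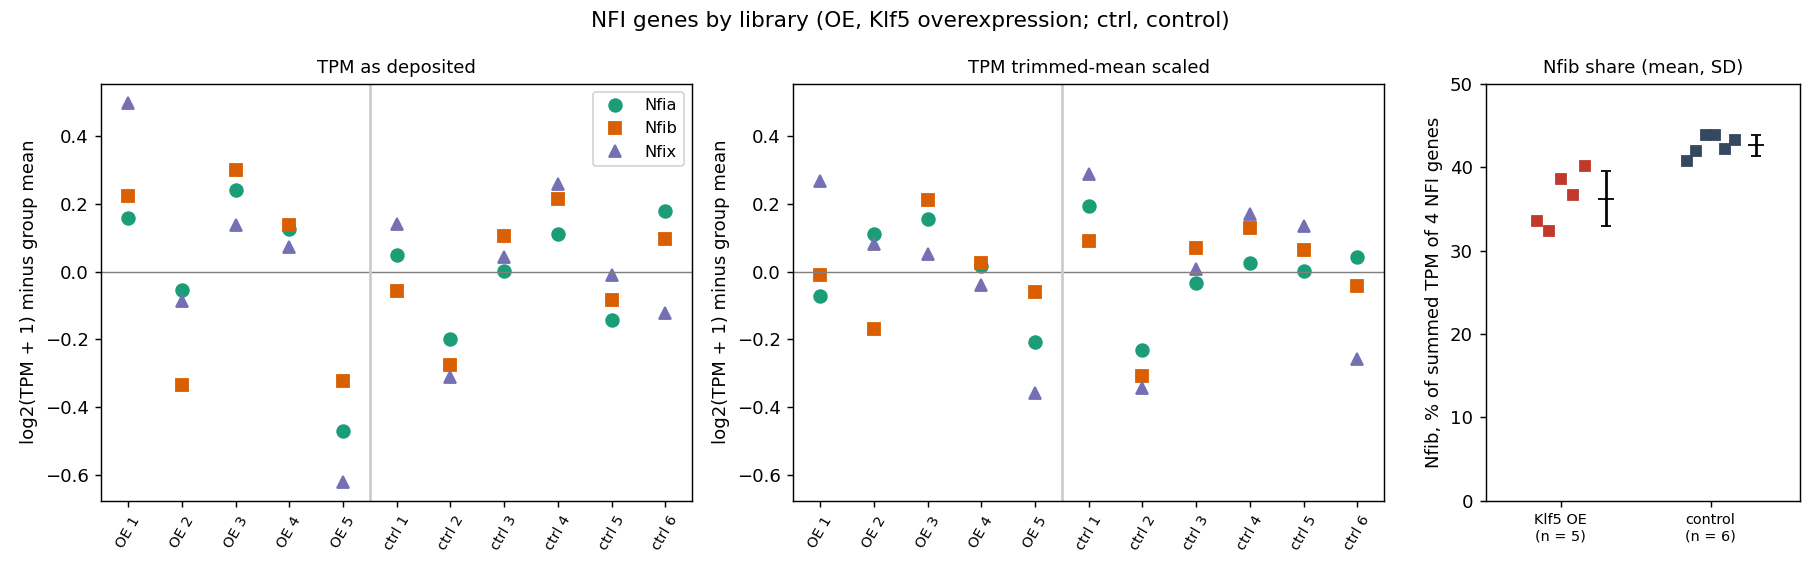
Nfia, Nfib and Nfix by library as log2(TPM + 1) minus the group mean, as deposited (left) and after trimmed-mean scaling (middle), and Nfib as a percentage of the summed TPM of 4 NFI genes (right, with mean and SD). The 3 genes tend to lie on the same side of 0 in a library, and the Nfib share is 32.4% to 40.1% with Klf5 overexpression against 40.7% to 43.9% in controls.

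In order of level, averaged over both group means, the 10 genes ran Hmga1 (94.3 TPM), Nfib (84.3 TPM), Nfix (71.0 TPM), Nfia (42.2 TPM), Igf2bp3 (30.3 TPM), Igf2bp2 (4.37 TPM), Hmga2 (3.97 TPM), Zbtb20 (2.44 TPM), Igf2bp1 (0.522 TPM) and Lin28b (0.0236 TPM). The top of this order differed between the groups: Hmga1 lay above Nfib in 5 of 5 Klf5 overexpression libraries and in 1 of 6 control libraries. Nfib lay above Nfix in 3 of 5 Klf5 overexpression libraries and in 6 of 6 control libraries. The neighbours Igf2bp2 and Hmga2 traded places between libraries, with Igf2bp2 above in 7 of 11. Nfix above Nfia and Nfia above Igf2bp3 held in 11 of 11.

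Among the 4 tested early genes, Hmga1 alone was called. The summed level of all 6 early genes was 153 ± 19.8 TPM with Klf5 overexpression and 114 ± 10.9 TPM in controls, and Hmga1 supplied 74.8 ± 5.58% of it with Klf5 overexpression and 64.5 ± 3.99% in controls (SD, n = 5 and 6). Without Hmga1 the other 5 early genes summed to 37.9 ± 6.41 TPM with Klf5 overexpression and 40.4 ± 5.10 TPM in controls. The late genes summed to 191 ± 40.3 TPM with Klf5 overexpression and 209 ± 23.1 TPM in controls. The share of early genes in the total of all 10 was 44.8 ± 4.32% with Klf5 overexpression and 35.5 ± 3.54% in controls. Once Hmga1 was left out, that share was 16.8 ± 3.16% with Klf5 overexpression and 16.3 ± 1.80% in controls. The median log2 difference was -0.14 over the 4 tested early genes and 0.02 over the 4 late genes, against -0.04 over all tested genes.

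Genes that act with LIN28 and let-7 gave 1 call. Of 13 tested factors that process let-7, recruit it or act with LIN28, none was called higher, against 2.29% of all tested genes. Called lower was 1, against 1.43% of all tested genes. That gene, Msi1, an RNA-binding protein of neural stem cells that works with LIN28 in the nucleus, averaged 17.4 ± 5.39 TPM with Klf5 overexpression and 27.0 ± 2.88 TPM in controls (SD, n = 5 and 6). Its log2 difference was -0.64 (limma, adjusted p = 0.0433). This call was lost in 10 of the 11 fits without 1 library. The median log2 difference of the 13 was 0.12. The microRNA itself was not measured by these libraries in a usable way: let-7 hairpin rows reached at most 10.8 TPM and were above 0 in at most 7 libraries.

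Other genes widely listed as let-7 targets gave no call: of 14 tested, 11 were below 0, with a median log2 difference of -0.10. Of all tested genes 42.4% were above 0. At an unadjusted limma p under 0.05 there were 2 of the 14, against 12.6% of all tested genes. E2f5, a cell-cycle transcription factor, had the smallest p among them and averaged 15.6 ± 3.08 TPM with Klf5 overexpression and 21.5 ± 1.92 TPM in controls (SD, n = 5 and 6; limma, adjusted p = 0.129). With trimmed-mean scaling, which gave 735 calls over the table against 504 without it, E2f5 passed the threshold (limma, adjusted p = 0.0466). Among all tested genes with an annotated 3′ UTR, those with a let-7 seed match had a median log2 difference of -0.03 and those without one of -0.04. Of those with a match 3.39% were called, against 4.02% of those without.

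Transcripts that IGF2BP proteins are known to bind gave 4 calls, all higher, among 9 tested, with a median log2 difference of 0.21. Over all tested genes 2.29% were called higher, and this list was chosen with earlier results known, so its count is a description. The Igf2bp genes themselves were not called. H19, a fetal non-coding RNA next to Igf2, ranged from 11.97 to 32.97 TPM with Klf5 overexpression and from 2.51 to 4.13 TPM in controls, with no overlap. Its means were 18.97 ± 8.42 TPM and 3.28 ± 0.666 TPM (Klf5 overexpression and control, SD, n = 5 and 6), a ratio of 5.78 (log2 difference 2.15; limma, adjusted p = 3.58e-05). Cd44, a cell-surface receptor for hyaluronan found on astrocyte precursors, averaged 39.8 ± 5.50 TPM with Klf5 overexpression and 13.0 ± 4.30 TPM in controls (log2 difference 1.59; limma, adjusted p = 0.000131). H19 and Cd44 passed in all 11 fits without 1 library. The fetal growth factor Igf2 averaged 1.99 ± 0.375 TPM with Klf5 overexpression and 0.571 ± 0.584 TPM in controls (limma, adjusted p = 0.0414), and the microtubule protein Mapt averaged 31.995 ± 3.95 TPM with Klf5 overexpression and 21.5 ± 4.84 TPM in controls (limma, adjusted p = 0.0474). Their calls were lost in 10 and 9 of the 11 fits without 1 library. Igf2 passed the filter through the Klf5 overexpression libraries, at 1.52 to 2.55 TPM, with controls at 0.214 to 1.74 TPM. Without a filter this list gave 2 calls, and without 1 library it gave 2 to 3. The H19 and Igf2 rows overlap other rows of the annotation on the same strand, so reads could be divided among them. Of these, Mir675 in H19 averaged 24.2 TPM with Klf5 overexpression and 5.93 TPM in controls (limma, adjusted p = 3.58e-05). Gm49394 at Igf2 averaged 2.25 TPM with Klf5 overexpression and 0.666 TPM in controls (limma, adjusted p = 0.0215). Both were thus called higher too, but are not separate from the H19 and Igf2 calls.

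Chromatin genes tied to progenitor age gave no call: of 21 tested, 12 were below 0, with a median log2 difference of -0.07, and 0 had an unadjusted limma p under 0.05. Of all tested genes 42.4% were above 0 and 12.6% had such a p. Dnmt3a, a DNA methyltransferase, had the smallest p and averaged 39.9 ± 7.99 TPM with Klf5 overexpression and 31.7 ± 6.65 TPM in controls (SD, n = 5 and 6; limma, adjusted p = 0.492). Cdkn2a, whose locus HMGA2 is known to repress in young stem cells, is named after its values were seen: it ran from 4.78 to 49.4 TPM with Klf5 overexpression and from 6.13 to 14.9 TPM in controls (limma, adjusted p = 0.566). Its SD was 17.6 TPM with Klf5 overexpression and 3.94 TPM in controls.

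Transcription factors of the switch from neurons to glia also gave no call among 22 tested, with 18 below 0 and a median log2 difference of -0.12. Of all tested genes 42.4% were above 0. At an unadjusted limma p under 0.05 there were 7 of the 22, against 12.6% of all tested genes. Prdm16, a zinc-finger regulator of radial glia, had the smallest p and averaged 3.70 ± 1.05 TPM with Klf5 overexpression and 6.20 ± 1.57 TPM in controls (SD, n = 5 and 6; limma, adjusted p = 0.200). It passed the threshold without control library 1 (limma, adjusted p = 0.0450), when 2 genes of the list were called lower, and without Klf5 overexpression library 5 the list gave 1 call, higher. The other 9 fits without 1 library gave 0 calls in it.

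The list of genes described as depending on NFI factors joins astrocyte genes with genes described as repressed by these factors. It therefore has no single direction to look for, and calls in both directions could be foreseen from its make-up. Of 20 tested, 4 were higher and 3 were lower, with a median log2 difference of -0.22. Over all tested genes 2.29% were called higher and 1.43% lower, and this list too was chosen with earlier results known. At an unadjusted limma p under 0.05 there were 13 of the 20, against 12.6% of all tested genes. S100b, a calcium-binding protein of glia, averaged 8.42 ± 5.13 TPM with Klf5 overexpression and 0.956 ± 0.599 TPM in controls (SD, n = 5 and 6; log2 difference 2.19; limma, adjusted p = 0.000310). It passed the filter through the Klf5 overexpression libraries, at 5.06 to 17.3 TPM, with controls at 0.271 to 2.04 TPM. Aldh1l1, a folate enzyme of astrocytes, averaged 15.8 ± 9.27 TPM with Klf5 overexpression and 62.6 ± 16.7 TPM in controls (log2 difference -2.04; limma, adjusted p = 0.000692). These astrocyte genes thus moved in opposite directions, each with no overlap between the groups. Of the other calls, Fgfr3, a growth factor receptor of precursors and astrocytes, averaged 107 ± 20.6 TPM with Klf5 overexpression and 39.7 ± 15.6 TPM in controls (limma, adjusted p = 0.00127). Sparcl1, a secreted matrix protein of astrocytes, averaged 79.1 ± 47.9 TPM with Klf5 overexpression and 21.0 ± 5.99 TPM in controls (limma, adjusted p = 0.00326). These 4 genes passed in each of the 11 fits without 1 library. The remaining calls were Hes1, a Notch effector (log2 difference 0.61; limma, adjusted p = 0.0170), and, lower, the glutamate transporter Slc1a3 (-0.76; limma, adjusted p = 0.00892) and the matrix protein Tnc (-0.85; limma, adjusted p = 0.0404). Without 1 library, Slc1a3 passed in all 11 fits, Hes1 in 10 and Tnc in 3. Gfap, the classical astrocyte filament, was at most 0.571 TPM with Klf5 overexpression and 0.0820 TPM in controls and was not tested.

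**Figure D5:**
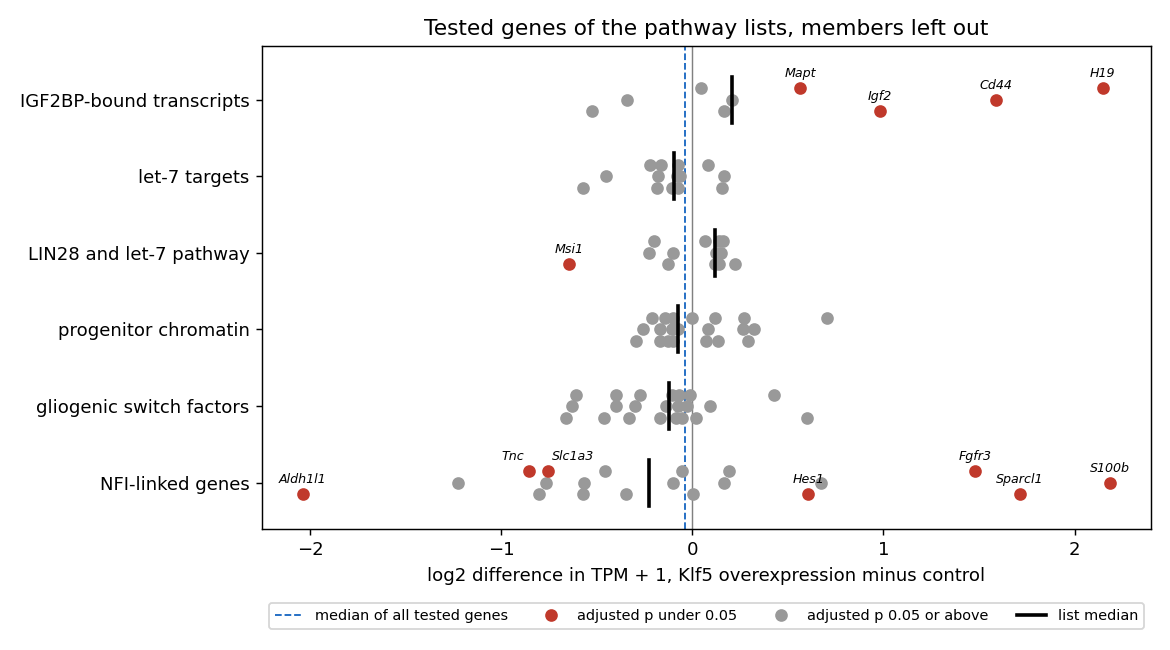
Log2 difference in TPM + 1, Klf5 overexpression minus control, for the tested genes, members left out, of 6 pathway lists (IGF2BP-bound transcripts, let-7 targets, LIN28 and let-7 pathway, progenitor chromatin, gliogenic switch factors and NFI-linked genes; cell type markers are not plotted), with a bar at each list's median and names on the genes called. IGF2BP-bound transcripts and NFI-linked genes hold the widest differences of the 6, from -2.04 (Aldh1l1) to 2.19 (S100b), and the other 4 plotted lists lie between -0.66 and 0.71.

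Neurons and glia also carry NFI transcripts, so their markers are given beside the late genes. Of 11 tested neuronal markers limma called none, 4 had an unadjusted p under 0.05 and 10 were below 0 (median log2 difference -0.38). Of all tested genes 12.6% had such a p and 42.4% were above 0. The list summed to 324 to 429 TPM with Klf5 overexpression and to 362 to 518 TPM in controls. The 9 astrocyte markers summed to 198 to 332 TPM with Klf5 overexpression and to 212 to 275 TPM in controls. Of 8 tested, 3 were called higher and 1 lower (2 lower without control library 2). Of all tested genes 2.29% were called higher and 1.43% lower. An unadjusted limma p under 0.05 was found for 7 of these 8 markers. The 10 markers of the oligodendrocyte lineage summed to 1777 to 2182 TPM with Klf5 overexpression and to 1723 to 3028 TPM in controls, with 7 of 8 tested below 0 and a median log2 difference of -0.11. The 1 call was Cspg4, a proteoglycan of oligodendrocyte precursors, which was higher (log2 difference 1.40; limma, adjusted p = 3.58e-05), against 2.29% of all tested genes called higher. The part of these cell types in the NFI levels was not tested.

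For each tested member, the genes that varied most like it were taken after each group's mean was subtracted, over the 11 libraries. None of them was called, against 3.72% of all tested genes. They are the highest of 13548 values of r per member on unscaled levels, given as a description with no test. The members' median r with all tested genes ran from -0.16 (Igf2bp2) to 0.43 (Nfib). After trimmed-mean scaling it ran from -0.010 (Igf2bp2) to 0.001 (Nfia). Hmga1 was most like Gm45808 and Fth1 (r = 0.98 and 0.95), and Hmga2 most like Tefm and Lrp12 (r = 0.97 and 0.95). Igf2bp2 was most like Gm21178 and Gm45841 (r = 0.95 and 0.89), and Igf2bp3 most like the histone genes Hist1h3c and Hist2h4 (r = 0.92 and 0.90). Among the late genes, Nfia was most like Zfp87 and Arf3 (r = 0.99 and 0.96) and Nfib most like Vash2 and Sox2 (r = 0.98 and 0.97). Nfix was most like Ogfod1 and Twsg1 (r = 0.98 and 0.97), and Zbtb20 most like Rsph9 and Rpl7a-ps5 (r = 0.96 and 0.93).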

How the data were processed

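RNA sequencing was carried out on 11 libraries of primary neurospheres, 5 with Klf5 overexpression and 6 controls, grouped by their titles. The deposited values are TPM per gene, made by the authors. The submitters' processing notes name HISAT2, StringTie, HTSeq, DESeq2 and the build GRCm38.p5, without the part each played. The sources used here give neither the annotation release nor the strand setting. TPM keeps no read depth, so depth is unknown and the error of each value is the spread between libraries.

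Genes that reached 1 TPM in 5 or more libraries were tested as log2(TPM + 1) with limma 3.58.1 (R 4.3.3; variance trend, two-sided) and Benjamini-Hochberg adjustment at 0.05 over all 13549 genes. This scale understates the change of low genes. The script was tested on simulated data. Single genes were also compared by an exact two-sided permutation test over all 462 assignments of the libraries to the groups. Positions and 3′ UTRs are those of the GENCODE M21 annotation of GRCm38, and miRNA and promoter sequences are from RefSeq on GRCm38.p6. Sequence motifs and figures were computed with Python 3.11.15.

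Named genes are the 10 members, from each list up to 4 called genes with the smallest p or else the gene with the smallest p, the 2 genes most like each tested member, and Klf5. Marker genes, Hmga1b, Cdkn2a, Gfap, Hes1, Lin28a, Nfic, Slc1a3, Tnc and overlapping rows are named beside them, outside this rule. The members and lists were chosen with earlier results of these data known. Alternatives were another pseudocount (0.1), a filter of 5 TPM or none, trimmed-mean scaling (30% of ratios and 5% of levels trimmed), quantile normalization, leaving out ribosomal RNA-like and mitochondrial rows, array weights, no variance trend, robust variances, the replicate number as a block and leaving out each library.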

Additional observations from a re-analysis of the deposited data

How the results depend on the processing

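Hmga1 kept its direction and its call under all 12 other settings (limma, log2 difference 0.61 to 0.68, adjusted p 0.000780 to 0.0439), among them the sum of the Hmga1 and Hmga1b rows (0.61), a setting chosen after seeing the data, and in all 11 fits without 1 library (adjusted p 0.0106 to 0.0422). Nfib kept its direction and passed the threshold under trimmed-mean scaling alone (-0.33, adjusted p = 0.0491); without 1 library its difference ranged from -0.45 to -0.29 with none called. Nfix changed sign with trimmed-mean scaling (0.0221), quantile normalization (0.0321), without ribosomal RNA-like and mitochondrial rows (0.0395) and with array weights (0.0566), and ranged from -0.14 to 0.14 without 1 library. Igf2bp3 changed sign without ribosomal RNA-like and mitochondrial rows (0.0146) and ranged from -0.092 to 0.024 without 1 library. For these changes the cause was not tested. Hmga2, Igf2bp2, Nfia and Zbtb20 kept their direction and were called under no setting run; a filter of 5 TPM left no value for Hmga2 and Zbtb20.

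The number of genes called over the table was 504, 349 without a filter and 735 with trimmed-mean scaling, and 353 to 492 without 1 library. No scaling moved the median of all genes by over 0.1. With the replicate number as a block on the 10 libraries that share one, Hmga1 gave a log2 difference of 0.68 (limma, adjusted p = 0.0219), and 420 genes were called, against 408 without the block. Libraries with the same number deviated together for number 1 at most (r = 0.30), with r from -0.04 to 0.06 for numbers 2 to 5. Only library 1 of the Klf5 overexpression group correlated best with its own number, so the numbers were not read as pairs. The same settings were run for the other named genes after seeing the data. H19, Cd44, S100b, Aldh1l1, Fgfr3, Sparcl1, Slc1a3 and Sox3 were called in every fit. Hmga1b, Igf2, Mapt, Msi1, Tnc and Vim were called in 3, 1, 2, 1, 3 and 2 of the 11 fits without 1 library. Hes1 was lost without Klf5 overexpression library 2 (adjusted p = 0.0550). With no depth in TPM, no counting error can be given for levels under 1 TPM, as for Lin28b and Igf2bp1.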
